A study of Homo sapiens with 4 samples.

Results

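The 40 genes described here encode proteins that detect DNA breaks, stop the cell cycle in response and repair the damage. They were chosen by name from the main repair pathways, with earlier results of these data known. Their Entrez Gene identifiers were looked up in the gene tables of 4 RNA-seq libraries. All 40 were found, among 17009 genes used in the JFK and vector tables and 16856 in the siRNA tables, and all 40 had a mean of at least 20 normalised counts in both comparisons. The libraries are labelled as HepG2, an established hepatoma cell line. One library is from cells transfected with FLAG-JFK, an epitope-tagged construct, and is set against 1 from cells given vector. JFK is an alias of FBXO42, an F-box protein that picks substrates for ubiquitination. The siRNA pair is 1 library from cells treated with an siRNA against ING5, a reader subunit of histone acetyltransferase complexes, and 1 from cells treated with control siRNA. Dose, time after transfection, the construct's promoter and the siRNA sequences are unstated in the labels, and no DNA-damaging agent is named in the labels. Each group is 1 library, so no difference has a replicate check and no p-value is given.

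Double-strand breaks are rejoined in human cells mainly by homologous recombination, which copies the sister chromatid, or by end joining, which ligates the ends directly. The Fanconi pathway clears crosslinks between the strands, while mismatch, base and nucleotide excision repair remove damage or errors within 1 strand. The kinases ATM and ATR report the damage to the checkpoint kinases CHEK2 and CHEK1. Transcripts of many recombination and Fanconi genes are known to rise as cells enter S phase.

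Summed counts over all genes used were 7237325 in the JFK-labelled library and 7179365 in vector, and 9030075 under ING5 siRNA and 9196979 under control siRNA. FBXO42 had 115 counts in the JFK-labelled library and 116 in vector, so that label is not borne out at the transcript level and the library is called by its label throughout. ING5 had 81 counts under ING5 siRNA and 144 under control siRNA (log2 fold −0.81). The liver label was checked against 18 genes for proteins that hepatocytes secrete. Of these, 6 have no row in the tables used here (ALB, AMBP, APOA2, APOH, TF and TTR), and 10 have at most 15.4 counts in any library. SERPINA1 had 3 counts in the JFK-labelled library and 7 in vector, and 3 under ING5 siRNA and 7 under control siRNA. AFP had 0 counts under ING5 siRNA and 1 under control siRNA. VTN and RBP4 alone of the 18 passed 20 counts, with 2598 and 61 counts in the JFK-labelled library, 2156 and 34 in vector, 489 and 54 under ING5 siRNA, and 376 and 34 under control siRNA. The defining transcripts of hepatocytes are thus nearly all at or near 0 in these tables, and the cell type is given here by its label only. Of 11 leukocyte and fibroblast markers, 4 were measured in the JFK pair and 5 in the siRNA pair; their summed level was 81.3 CPM (counts scaled to library size) in the JFK-labelled library and 77.2 in vector, and 94.3 under ING5 siRNA and 96.7 under control siRNA. In the JFK comparison intervals of all 4 measured markers held 0. In the ING5 comparison DCN had 37 counts under ING5 siRNA and 74 under control siRNA (log2 fold −0.97, 95% counting interval −1.59 to −0.40), and LUM had 232 and 294 (−0.33, interval −0.58 to −0.07). COL3A1 had 352 counts under ING5 siRNA and 278 under control siRNA (0.36, interval 0.13 to 0.59), and PDGFRB had 52 and 46 (0.19, interval −0.41 to 0.80). These fibroblast markers thus lay on both sides of 0, while CD3E and LST1 have no row in the tables used here. The part of these markers in the values below was not tested.

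Levels per gene length spanned a wide range in each library. XRCC6, which encodes Ku70, one side of the ring that grips broken ends, led with 267 FPKM in the JFK-labelled library and 257 in vector, and with 331 RPKM under ING5 siRNA and 338 under control siRNA. FPKM and RPKM, as the authors deposited them, are counts divided by gene length and by library size. Its partner Ku80, encoded by XRCC5, came next with 92.97 FPKM in the JFK-labelled library, 115 in vector, 154 RPKM under ING5 siRNA and 185 under control siRNA. The break sensor PARP1 followed at 59.7 and 61.2 FPKM in the JFK-labelled library and vector, and at 123 and 115 RPKM under ING5 and control siRNA. At the low end BRCA2, a mediator that loads the recombinase onto single-stranded DNA, had 1.93 FPKM in the JFK-labelled library, 2.19 in vector, 2.40 RPKM under ING5 siRNA and 2.88 under control siRNA. FANCM, a DNA translocase that brings the Fanconi core complex to crosslinks, had 1.92 FPKM in the JFK-labelled library, 1.77 in vector, 4.86 RPKM under ING5 siRNA and 4.38 under control siRNA. By rank BRCA2 stood at the 34.1 to 42.4 percentile of genes listed in each table, and XRCC6 at the 98.5 to 99.2 percentile.

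**Figure D1:**
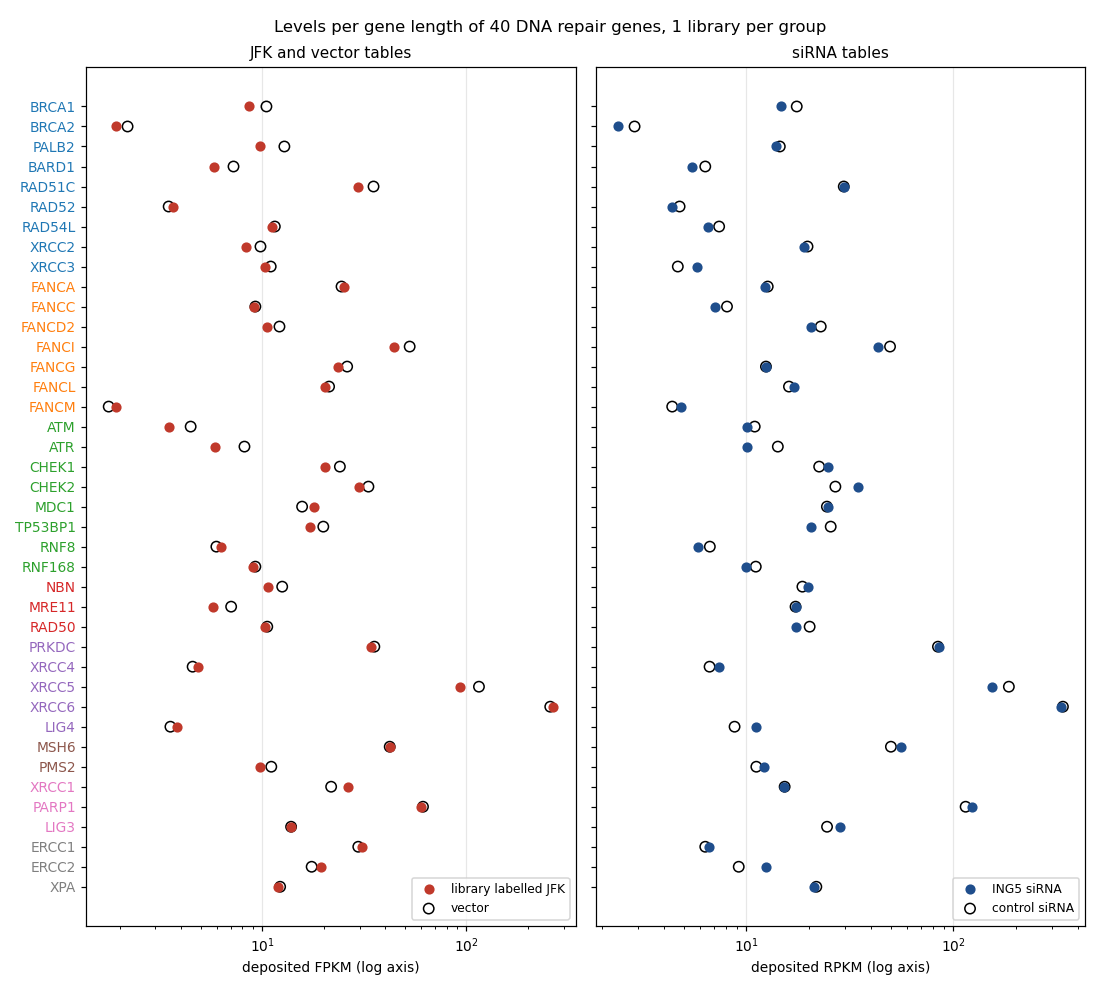
Deposited level per gene length of the 40 repair genes on log axes, FPKM at left for the JFK-labelled library (filled) and vector (open), RPKM at right for ING5 siRNA (filled) and control siRNA (open). Symbol colours mark the pathway. The spread between genes, from 1.92 to 267 FPKM in the JFK-labelled library, is far wider than that between the libraries of a pair.

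The pairs differ from each other in the level of several members, and their tables were scaled separately, so these values are only set side by side. PRKDC, the catalytic kinase of the end-joining complex, had 34.2 FPKM in the JFK-labelled library and 35.4 in vector, but 85.2 and 84.3 RPKM under ING5 and control siRNA. MRE11, the nuclease that starts resection of a break, had 5.73 and 7.04 FPKM in the JFK-labelled library and vector, and 17.4 and 17.3 RPKM under ING5 and control siRNA. The excision nuclease subunit gene ERCC1 went the other way, with 30.9 and 29.5 FPKM in the JFK-labelled library and vector, and 6.62 and 6.33 RPKM under ING5 and control siRNA. The tables give ERCC1 unequal lengths, 2185 bases in the JFK pair and 3400 in the siRNA pair, and a longer one gives a lower value for the same count. Its depth-scaled counts differed too, at 68.7 and 62.4 CPM in the JFK-labelled library and vector against 22.6 and 21.6 under ING5 and control siRNA.

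Against these levels the differences within each pair were small. In bulk RNA fewer cells of a type and less RNA per cell cannot be told apart. Folds are log2 ratios of counts scaled by TMM (a trimmed mean of log ratios over all genes), with 0.5 added, and each has a 95% interval for the ratio of its 2 counts (exact, by the Clopper-Pearson method), which covers counting error only. In the JFK-labelled library, 0 of 40 members passed 1.5-fold in either direction, where 1.5% of 12107 measured genes were higher and 2.07% lower than in vector by that much. Under ING5 siRNA 0 of 40 were 1.5-fold higher and 0 were 1.5-fold lower than under control siRNA, where 4.01% and 4.4% of 11634 measured genes were. Below 0 lay 22 members in the JFK comparison and 21 in the ING5 comparison, beside 49.5% and 51.4% of measured genes. The median log2 fold of the members was −0.02 in each comparison, beside 0.0023 over all measured genes in the JFK comparison and −0.0095 in the ING5 comparison. By the counting interval, 7 members stood wholly below 0 and 3 wholly above in the JFK-labelled library, beside 11.2% and 14.3% of measured genes. Under ING5 siRNA 9 stood wholly below 0 and 7 wholly above, beside 20.6% and 18.3% of measured genes. Among measured genes within the members' range of counts, the shares wholly below and wholly above 0 were 12.2% and 15% in the JFK comparison, and 24.4% and 20.6% in the ING5 comparison. In the JFK comparison the members' shares were 17.5% wholly below and 7.5% wholly above. These shares rest on 7 and 3 genes, and their distance from those of all genes was not tested. The fold in that comparison also moved with GC content, in which the members are poor (median 43.9% beside 48.7% of measured genes). In the ING5 comparison the members' shares were 22.5% and 17.5%, near those of all genes. The values that follow describe single transcripts.

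**Figure D2:**
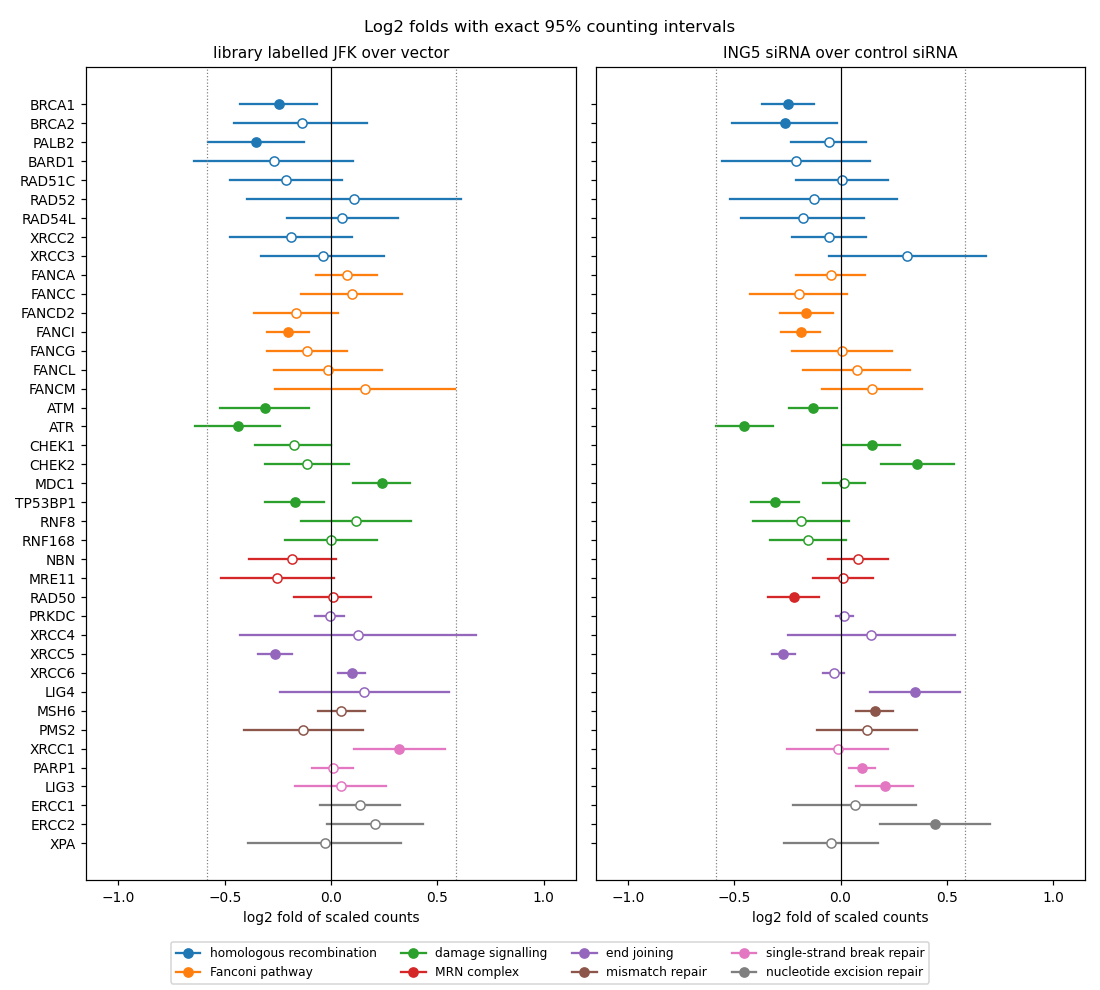
Log2 fold of each repair gene in the JFK-labelled library over vector (left) and under ING5 siRNA over control siRNA (right), 1 library per group. Points are folds, bars exact 95% counting intervals, filled points have an interval that leaves out 0, colours mark pathways and dotted lines mark 1.5-fold; ATR lies lowest in both panels and 0 points pass the dotted lines.

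Of all members ATR lay lowest in both comparisons. ATR is the kinase that answers stalled replication forks and long stretches of single-stranded DNA. It had 356 counts in the JFK-labelled library and 491 in vector (log2 fold −0.44, interval −0.64 to −0.24). Under ING5 siRNA it had 779 counts, against 1078 under control siRNA (−0.45, interval −0.59 to −0.32). The JFK-labelled library and the ING5 siRNA library were each low by about the same proportion, 26.2% in the JFK-labelled library and 26.9% under ING5 siRNA. Among all measured genes these folds stood at the 5.02 and the 7.93 percentile. For ATR under ING5 siRNA the listed count is 1.03 times the one implied by its RPKM and length, so by RPKM the log2 fold is −0.49.

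In total 6 members had an interval wholly below 0 in both comparisons, which holds for 3.94% of the 11148 genes measured in both, and 0 had one wholly above 0 in both (2.84% of genes). The 6 are ATR, ATM, TP53BP1, BRCA1, FANCI and XRCC5. They act at different steps: ATM is the kinase for double-strand breaks, TP53BP1 shields broken ends from resection, BRCA1 promotes resection and recombination, FANCI forms the Fanconi clamp with FANCD2, and XRCC5 is Ku80. The comparisons have separate controls. Over the 40 members the folds of the comparisons had a Pearson correlation of 0.44 and a Spearman correlation of 0.42, beside 0.06 and 0.03 over the 11148 genes; the points share libraries and, within a pair, depth, so these are descriptions. Below 0 in both lay 12 members (30%), beside 25.9% of all genes. The members were more deeply counted than all measured genes. Their median normalised count was 362 beside 261 in the JFK comparison and 539 beside 320 in the ING5 comparison. Correlations over genes within the members' range of counts were not computed. At a mean of at least 100 normalised counts the same 6 members had both intervals below 0, beside 5.03% of 8346 genes.

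TP53BP1 had 784 counts in the JFK-labelled library and 898 in vector (−0.17, interval −0.31 to −0.03), and 1170 under ING5 siRNA against 1466 under control siRNA (−0.31, interval −0.42 to −0.20). BRCA1 had 459 and 554 expected counts in the JFK-labelled library and vector (−0.25, interval −0.43 to −0.07), and 978 and 1174 counts under ING5 and control siRNA (−0.25, interval −0.37 to −0.12). FANCI had 1549 counts in the JFK-labelled library and 1814 in vector (−0.20, interval −0.30 to −0.10), and 1875 under ING5 siRNA and 2160 under control siRNA (−0.19, interval −0.28 to −0.10). In these 3 genes the JFK-labelled and the ING5 siRNA library were each below their own control beyond counting error. In the JFK comparison this did not hold for BRCA1 (−0.14, interval −0.32 to 0.04) and TP53BP1 (−0.11, interval −0.25 to 0.03) once folds were centred on genes of like GC content, nor for TP53BP1 when centred on genes of like length (−0.11, interval −0.25 to 0.02). ATM had 338 expected counts in the JFK-labelled library and 427 in vector (−0.31, interval −0.52 to −0.10). Its difference was smaller in the siRNA pair, with 1199 counts under ING5 siRNA and 1327 under control siRNA (−0.13, interval −0.24 to −0.02). Centred on genes of like GC content, the ATM interval held 0 in the JFK comparison (−0.39 to 0.03) and in the ING5 comparison (−0.22 to 0.006). Centred on genes of like length, it stayed below 0 in both.

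**Figure D3:**
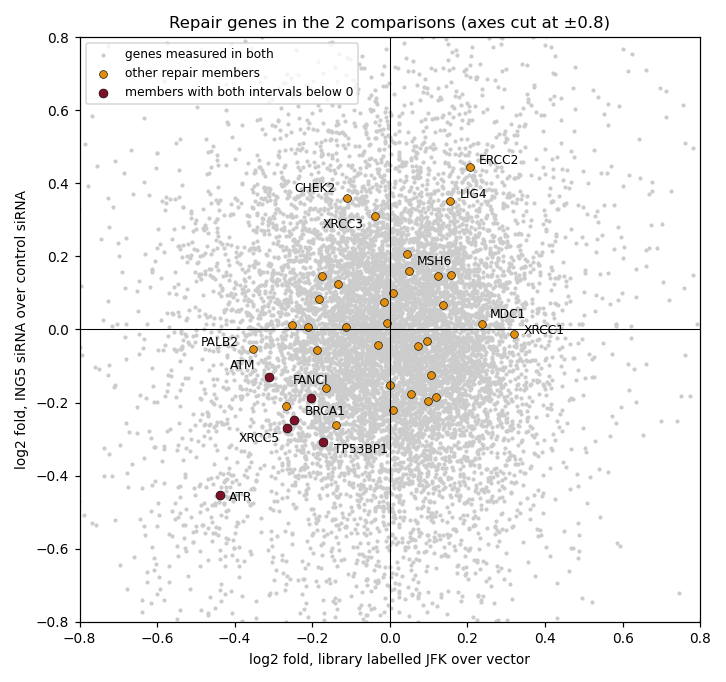
Log2 folds of the JFK-labelled library over vector (horizontal) against ING5 siRNA over control siRNA (vertical), with 11148 genes measured in both in grey and repair genes in colour; axes are cut at 0.8. The 6 dark points have both counting intervals below 0, and ATR is the farthest from the origin among them.

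Promoter windows were read for 36 of the 40 members from RefSeq on GRCh38.p14, from 250 bases before to 50 after each gene start. FANCI, XRCC5, NBN and PRKDC have no entry in that table. Windows are shown for 4 members that were lower in both comparisons by fold (ATR at chr3:142578684-142578983, minus strand; TP53BP1 at chr15:43510591-43510890, minus strand; ATM at chr11:108222817-108223116, plus strand; FANCD2 at chr3:10026187-10026486, plus strand) and for the highest member of each comparison (ERCC2 at chr19:45370524-45370823 and XRCC1 at chr19:43575478-43575777, both minus strand). Capitals mark, on either strand, the CCAAT box, the GC box GGGCGG and the E2F words TTTGGCGC, TTTCGCGC, TTTCCCGC and TTTGCCGC.
ATR: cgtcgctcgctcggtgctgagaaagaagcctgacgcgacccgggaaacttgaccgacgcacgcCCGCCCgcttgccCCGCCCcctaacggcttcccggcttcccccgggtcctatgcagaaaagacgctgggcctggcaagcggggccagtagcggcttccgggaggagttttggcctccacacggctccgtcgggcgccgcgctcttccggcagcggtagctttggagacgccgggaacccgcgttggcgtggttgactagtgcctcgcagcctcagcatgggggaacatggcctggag
TP53BP1: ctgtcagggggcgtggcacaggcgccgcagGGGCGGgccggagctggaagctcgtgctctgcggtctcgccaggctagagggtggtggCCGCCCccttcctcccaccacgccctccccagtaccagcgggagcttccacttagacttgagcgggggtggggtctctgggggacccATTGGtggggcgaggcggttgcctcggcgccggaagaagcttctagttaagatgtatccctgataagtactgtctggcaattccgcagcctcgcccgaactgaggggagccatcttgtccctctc
ATM: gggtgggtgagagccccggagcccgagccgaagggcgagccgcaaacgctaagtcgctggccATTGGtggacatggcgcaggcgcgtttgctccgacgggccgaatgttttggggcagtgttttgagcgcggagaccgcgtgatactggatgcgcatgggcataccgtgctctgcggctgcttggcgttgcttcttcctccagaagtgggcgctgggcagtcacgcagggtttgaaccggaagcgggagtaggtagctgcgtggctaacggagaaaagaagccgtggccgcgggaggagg
FANCD2: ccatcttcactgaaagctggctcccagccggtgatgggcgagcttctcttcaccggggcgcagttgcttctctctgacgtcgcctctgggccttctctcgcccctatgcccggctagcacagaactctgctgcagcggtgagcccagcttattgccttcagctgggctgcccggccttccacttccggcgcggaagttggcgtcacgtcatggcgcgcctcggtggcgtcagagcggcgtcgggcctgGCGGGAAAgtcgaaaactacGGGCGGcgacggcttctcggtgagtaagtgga
ERCC2: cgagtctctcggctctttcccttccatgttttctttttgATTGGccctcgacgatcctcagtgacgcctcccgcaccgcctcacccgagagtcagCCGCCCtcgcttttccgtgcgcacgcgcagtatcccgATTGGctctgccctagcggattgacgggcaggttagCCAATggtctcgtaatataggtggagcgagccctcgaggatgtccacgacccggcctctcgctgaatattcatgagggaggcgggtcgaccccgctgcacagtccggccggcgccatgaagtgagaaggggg
XRCC1: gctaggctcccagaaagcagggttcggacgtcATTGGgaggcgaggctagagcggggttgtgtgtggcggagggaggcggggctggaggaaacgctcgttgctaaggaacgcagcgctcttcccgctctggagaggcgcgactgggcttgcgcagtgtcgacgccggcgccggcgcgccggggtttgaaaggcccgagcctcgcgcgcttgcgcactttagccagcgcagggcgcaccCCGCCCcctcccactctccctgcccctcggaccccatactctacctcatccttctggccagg
The ATR window holds 2 GC boxes and neither of the other motifs, that of ERCC2 holds 3 CCAAT boxes and 1 GC box, and that of FANCD2 holds 1 E2F word and 1 GC box. An E2F word stood in a window of 7 of the 36 members (19.4%), namely FANCA, FANCC, FANCD2, MSH6, PMS2, XRCC2 and XRCC6, against 6.76% of 10075 measured genes and 3.99% of all 27305 genes with an entry. CCAAT stood in 58.3% of members, 43.4% of measured and 39.7% of all genes. GGGCGG stood in 83.3%, 76.9% and 48.3% of the same sets. The cyclic AMP response word TGACGTCA stood in 11.1%, 3.82% and 2.25%, and the cell cycle word TTTGAA in 13.9%, 13.6% and 18.2%. Both strands were searched, motifs may overlap, and a match is a run of letters only.

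In the JFK comparison the fold moved with base composition. Across 11319 measured genes with a coding transcript in GENCODE 29 the Spearman correlation of log2 fold with transcript GC content was 0.55, and over the 40 members it was 0.40. Across the siRNA pair the same correlations were −0.0044 over 11022 genes and 0.12 over the members. The members are poorer in GC than most, with a median of 43.9% beside 48.7% of measured genes. Members with up to 41.9% GC had a median fold of −0.16 in the JFK comparison, those between 41.9% and 46.2% GC −0.16 and those over 46.2% GC 0.10. All measured genes in the same ranges had medians of −0.15, −0.07 and 0.09, so the members lay lower than genes of like GC content in the middle range. The median of measured genes in the same of 10 bins of GC content was then subtracted, an alternative chosen after seeing the data. With it 5 members had an interval wholly below 0 in the JFK comparison. The share of all genes wholly below 0 in the JFK comparison alone was not computed with this centring. Of the 7 before, PALB2, ATR, XRCC5 and FANCI kept it, and FANCG, a core complex subunit with 58.1% GC, was gained. ATR then lay at −0.31 (interval −0.51 to −0.11), XRCC5 at −0.20 (−0.28 to −0.12) and FANCI at −0.14 (−0.24 to −0.04). The intervals of ATM, BRCA1 and TP53BP1 in the JFK comparison then held 0. In the ING5 comparison that of ATM held 0 too (−0.22 to 0.006). Thus 3 members remained wholly below 0 in both, beside 2.49% of genes, and 1, MSH6, stood wholly above (1.9%). The part of base composition in the single folds was not tested further. With gene length the Spearman correlations were −0.19 over the members and −0.21 over all genes in the JFK comparison, and −0.39 and −0.03 in the ING5 comparison.

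**Figure D4:**
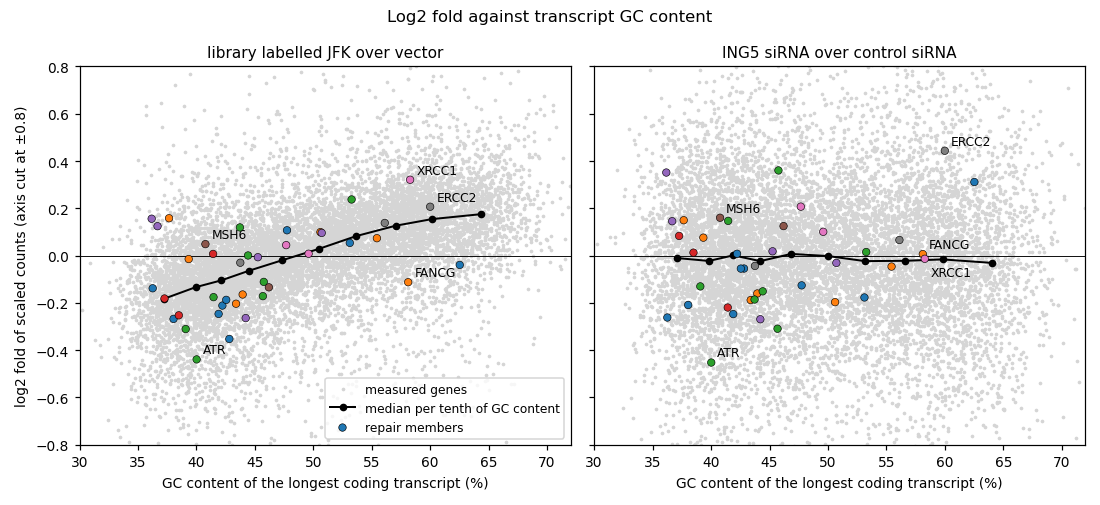
Log2 fold against GC content of the longest coding transcript for measured genes (grey), repair genes (coloured by pathway) and the median of each of 10 GC bins (black line), with the JFK-labelled library over vector at left and ING5 siRNA over control siRNA at right; the vertical axis is cut at 0.8. The black line climbs at left (Spearman correlation 0.55 over genes) and stays flat at right (−0.0044).

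Some repair genes lie head to head with a gene that runs the other way. A start on the opposite strand within 1000 bases upstream was found for 15 of the 36 members (41.7%), against 29.9% of measured genes. ATM lies head to head with NPAT, a coactivator of histone genes. NPAT had 188 counts in the JFK-labelled library and 223 in vector (−0.22, interval −0.51 to 0.06), and 464 under ING5 siRNA and 501 under control siRNA (−0.09, interval −0.28 to 0.09), on the same side of 0 as ATM in both. LIG4 and its neighbour ABHD13 stood on opposite sides in the JFK comparison, where ABHD13 had 154 counts in the JFK-labelled library and 196 in vector (−0.32, interval −0.64 to −0.01). AIMP2, beside PMS2, had 228 counts under ING5 siRNA and 288 under control siRNA (−0.32, interval −0.58 to −0.07). PMS2 lay on the other side of 0 there (0.12). TMEM167A, beside XRCC4, had 893 counts under ING5 siRNA and 792 under control siRNA (0.19, interval 0.05 to 0.33), on the same side of 0 as XRCC4. Both genes of a pair were measured for 10 pairs in the JFK comparison, of which 5 lay on the same side of 0, and for 11 in the ING5 comparison, of which 7 did. The same share over all head-to-head pairs of measured genes was not computed, so these counts are descriptions only.

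In the recombination group 7 of 9 members lay below 0 in each comparison. Of measured genes 49.5% did in the JFK comparison and 51.4% in the ING5 comparison. The group's medians were −0.19 in the JFK-labelled library and −0.13 under ING5 siRNA. In the JFK comparison the 9 folds ran from −0.35 (PALB2) to 0.11 (RAD52). Centred there on genes of like GC content, they ran from −0.25 (PALB2) to 0.13 (RAD52), with BRCA2 at 0.04. The part of GC content in the group's folds was not tested. PALB2, which bridges BRCA1 to BRCA2, had 291 counts in the JFK-labelled library and 378 in vector (−0.35, interval −0.58 to −0.13), while it had 517 under ING5 siRNA and 543 under control siRNA (−0.05, interval −0.23 to 0.12). PALB2 was thus lower beyond counting error in the JFK-labelled library, and whether its comparisons differ was not tested. BARD1, the obligate partner of BRCA1, had 111 counts in the JFK-labelled library and 136 in vector (−0.27, interval −0.64 to 0.10), and 130 and 152 under ING5 and control siRNA (−0.21, interval −0.56 to 0.14). BRCA2 had 162 expected counts in the JFK-labelled library and 182 in vector (−0.14, interval −0.46 to 0.17), and 249 counts under ING5 siRNA and 302 under control siRNA (−0.26, interval −0.51 to −0.02). Of these 3 partners the interval left out 0 for PALB2 in the JFK comparison and for BRCA2 in the ING5 comparison, and held 0 for BARD1 in both. The ratio of BRCA1 to BARD1 differed by 0.02 (interval −0.40 to 0.44) in the JFK comparison and by −0.04 (−0.41 to 0.33) in the ING5 comparison. That ratio of counts needs no scaling between libraries.

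Among members that help the recombinase filament form, RAD51C lay at −0.21 and XRCC2 at −0.19 in the JFK-labelled library, and at 0.01 and −0.05 under ING5 siRNA. XRCC3, another of them, had 199 counts in the JFK-labelled library and 208 in vector (−0.04), and 140 under ING5 siRNA and 114 under control siRNA (0.31, interval −0.05 to 0.68). Intervals of all 3 held 0 in both comparisons. RAD52, an annealing protein, lay at 0.11 and −0.13 in the JFK and ING5 comparisons, and the strand-exchange motor gene RAD54L at 0.05 and −0.18.

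In the Fanconi group the clamp subunits lay below 0 in both comparisons. FANCD2, the clamp partner of FANCI, had 397 expected counts in the JFK-labelled library and 453 in vector (−0.16, interval −0.36 to 0.03), and 969 counts under ING5 siRNA and 1095 under control siRNA (−0.16, interval −0.29 to −0.03). For these clamp subunits the log2 ratio of FANCD2 to FANCI differed by 0.04 (interval −0.18 to 0.26) in the JFK comparison and by 0.03 (−0.13 to 0.18) in the ING5 comparison. Core complex members FANCA, FANCC and FANCG lay at 0.07, 0.10 and −0.11 in the JFK-labelled library and at −0.05, −0.20 and 0.01 under ING5 siRNA. FANCL, the ubiquitin ligase that modifies the clamp, lay at −0.01 and 0.08 in the JFK and ING5 comparisons. FANCM had 101 counts in the JFK-labelled library and 92 in vector (0.16, interval −0.26 to 0.58), and 316 under ING5 siRNA and 288 under control siRNA (0.15, interval −0.09 to 0.39). All intervals of the core members and FANCM held 0.

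Within damage signalling the effector kinases lay on the other side of 0 from ATM and ATR under ING5 siRNA. CHEK2, the kinase downstream of ATM, had 626 counts under ING5 siRNA and 493 under control siRNA (0.36, interval 0.19 to 0.53), and CHEK1, the kinase downstream of ATR, had 945 and 863 (0.15, interval 0.01 to 0.28). In the JFK-labelled library CHEK2 had 405 counts and vector 445 expected counts (−0.11, interval −0.31 to 0.09), and CHEK1 lay at −0.18. The ratio of ATR to CHEK1 counts was 0.824 under ING5 siRNA and 1.25 under control siRNA, a log2 difference of −0.60 (interval −0.79 to −0.41). For the same genes it was 0.740 in the JFK-labelled library and 0.888 in vector (−0.26, interval −0.53 to 0.01). The ratio of ATM to CHEK2 counts was 1.92 under ING5 siRNA and 2.69 under control siRNA (−0.49, interval −0.70 to −0.28), and 0.835 in the JFK-labelled library and 0.960 in vector (−0.20, interval −0.49 to 0.09). Transcripts of ATR and ATM were thus low relative to those of CHEK1 and CHEK2 in the ING5 siRNA library beyond counting error. CHEK2 has near-identical partial copies in the genome, so its counts are uncertain.

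MDC1, the adaptor that binds phosphorylated histone H2AX at breaks, had 975 counts in the JFK-labelled library and 841 in vector (0.24, interval 0.10 to 0.37), the second highest member there. Under ING5 siRNA it had 1663 counts and under control siRNA 1664, so no difference was seen in that pair (0.02, interval −0.08 to 0.11). Of the ubiquitin ligases that act after MDC1, RNF8 stood 8.61% above vector in the JFK-labelled library and RNF168 differed from it by 0.039%. Under ING5 siRNA RNF8 and RNF168 lay at −0.19 and −0.15 on the log2 scale. The intervals of both genes held 0 in both comparisons. In the MRN complex, which tethers ends and activates ATM, RAD50 had 1042 counts under ING5 siRNA and 1227 under control siRNA (−0.22, interval −0.34 to −0.10), while MRE11 lay at 0.01 and NBN at 0.08. In the JFK-labelled library MRE11 lay at −0.25 (interval −0.52 to 0.01), NBN at −0.18 and RAD50 at 0.01. Centred there on genes of like GC content, MRE11 lay at −0.07 (interval −0.34 to 0.19), NBN at 0.001 and RAD50 at 0.11. The MRE11 to RAD50 ratio differed by 0.23 (interval 0.05 to 0.42) under ING5 siRNA and by −0.26 (−0.58 to 0.06) in the JFK-labelled library.

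For end joining the subunits of the DNA-dependent protein kinase did not move together. XRCC5 had 2348 counts in the JFK-labelled library and 2868 in vector (−0.26, interval −0.34 to −0.19), and 4827 under ING5 siRNA and 5882 under control siRNA (−0.27, interval −0.32 to −0.21). XRCC6 had 4184 counts in the JFK-labelled library and 3981 in vector (0.10, interval 0.03 to 0.16), and 6495 under ING5 siRNA and 6710 under control siRNA (−0.03, interval −0.08 to 0.02). PRKDC had 3407 counts in the JFK-labelled library and 3481 in vector, and 10488 under ING5 siRNA and 10472 under control siRNA, with folds of −0.01 and 0.02. Of these 3 genes XRCC5 was low in both the JFK-labelled and the ING5 siRNA library, and the other two were not; Ku70 and Ku80 work as an obligate dimer. The XRCC5 to XRCC6 count ratio was 0.561 in the JFK-labelled library and 0.720 in vector (log2 difference −0.36, interval −0.46 to −0.26). In the siRNA pair it was 0.743 under ING5 siRNA and 0.877 under control siRNA (−0.24, interval −0.31 to −0.16). These genes are deeply counted, so counting error is small beside the difference, but variation between libraries of 1 condition is unknown. The count ratio is also not adjusted for GC content, which is 44.2% for XRCC5 and 50.7% for XRCC6. Centred on genes of like GC content, XRCC5 lay at −0.20 and XRCC6 at 0.07 in the JFK comparison.

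**Figure D5:**
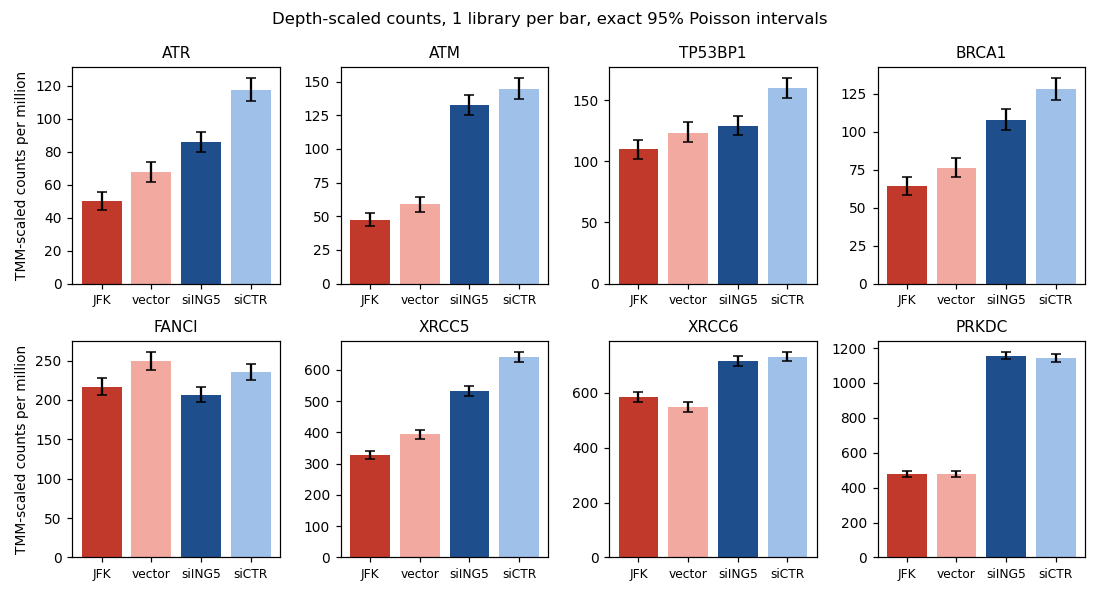
CPM (depth-scaled counts) of the 6 members with both intervals below 0, and of XRCC6 and PRKDC, in the JFK-labelled library, vector, ING5 siRNA (siING5) and control siRNA (siCTR); 1 library per bar, error bars are exact 95% Poisson intervals for counting error. ATR stands at 49.8 in the JFK-labelled library and 67.5 in vector, and at 86.0 under ING5 siRNA and 117.6 under control siRNA, while PRKDC differs little within each pair.

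The ligation step was on the other side of 0. LIG4, the ligase that seals the ends, had 114 counts in the JFK-labelled library and 104 in vector (0.16, interval −0.24 to 0.55), and 419 under ING5 siRNA and 332 under control siRNA (0.35, interval 0.14 to 0.56). Its scaffold XRCC4 had 59 and 55 counts in the JFK-labelled library and vector, and 116 and 106 under ING5 and control siRNA, with folds of 0.12 and 0.15. Only the ING5 comparison of LIG4 left out 0.

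In mismatch repair MSH6, a subunit of the complex that recognises mispairs, had 1375 counts in the JFK-labelled library and 1352 in vector (0.05, interval −0.06 to 0.16), and 2251 under ING5 siRNA and 2037 under control siRNA (0.16, interval 0.07 to 0.25). PMS2, the endonuclease subunit, lay at −0.13 and 0.12 in the JFK and ING5 comparisons, with both intervals around 0; it has pseudogene copies and its counts are uncertain.

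XRCC1, the scaffold of single-strand break repair, was the highest member in the JFK-labelled library, with 403 counts against 328 in vector (0.32, interval 0.11 to 0.54). Under ING5 siRNA it had 290 counts and under control siRNA 296 (−0.01, interval −0.25 to 0.23). XRCC1 has a GC content of 58.3%, and after the GC adjustment its interval in the JFK comparison held 0. Centred on genes of like length, XRCC1 stayed above 0 there (0.27, interval 0.05 to 0.48). Its ligase partner LIG3 had 361 and 356 counts in the JFK-labelled library and vector, and 959 and 840 under ING5 and control siRNA (0.21, interval 0.07 to 0.34). PARP1 had 1753 counts in the JFK-labelled library and 1773 in vector, and 4474 under ING5 siRNA and 4219 under control siRNA (0.10, interval 0.04 to 0.16). Both were thus slightly higher under ING5 siRNA beyond counting error, while their intervals in the JFK comparison held 0.

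ERCC2, the helicase subunit of TFIIH that opens DNA around a lesion, was the highest member under ING5 siRNA, with 292 counts against 217 under control siRNA (0.44, interval 0.19 to 0.70). In the JFK-labelled library it had 353 counts and in vector 311 (0.21, interval −0.02 to 0.43). ERCC1 lay at 0.14 and 0.07, and XPA, which checks the lesion before excision, at −0.03 and −0.04 in the JFK and ING5 comparisons. Intervals of ERCC1 and XPA held 0 in both.

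Counts can be split between overlapping or similar genes. Among the members 12 had counts that were not whole in the JFK or vector table, among them BRCA1, ATM, FANCD2, CHEK1, CHEK2 and PMS2, and 28 had whole counts. ATR, XRCC5, FANCI, TP53BP1, PALB2, MDC1 and XRCC1 were among the 28. In the siRNA tables all counts were whole, and how shared reads were treated there is unstated.

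The rest of the repair machinery was read from 7 further lists with 127 genes. In the JFK comparison 122 were measured, with a median of −0.02; 0 passed 1.5-fold upward and 1 passed it downward, while 6 (4.92%) had an interval wholly above 0 and 20 (16.4%) wholly below, beside 14.3% and 11.2% of all measured genes. Under ING5 siRNA 120 were measured, with a median of −0.08; 4 were 1.5-fold higher and 1 was 1.5-fold lower, while 10 (8.33%) had an interval wholly above 0 and 31 (25.8%) wholly below, beside 18.3% and 20.6% of all measured genes. The 1.5-fold counts stand beside 1.5% higher and 2.07% lower of all measured genes in the JFK comparison, and 4.01% and 4.4% in the ING5 comparison. The list of other recombination and resection genes had medians of −0.05 in the JFK comparison and −0.23 in the ING5 comparison, where 12 of 27 had an interval wholly below 0 and 3 wholly above, beside 20.6% and 18.3% of all measured genes. GEN1, a nuclease that cuts recombination junctions, had 274 counts under ING5 siRNA and 375 under control siRNA (−0.44, interval −0.67 to −0.21). RPA2, a subunit of the single-strand binding protein, had 769 under ING5 siRNA and 631 under control siRNA (0.30, interval 0.15 to 0.46), on the other side of 0. BLM, a helicase that dissolves junctions, had 163 in the JFK-labelled library and 227 in vector (−0.45, interval −0.75 to −0.16).

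Medians of the remaining repair lists in the JFK and ING5 comparisons were 0.02 and −0.07 for other Fanconi genes, −0.04 and −0.08 for other end joining genes, and −0.03 and −0.08 for other checkpoint genes. They were −0.07 and −0.13 for other mismatch genes, 0.04 and 0.05 for other base excision genes, and −0.01 and −0.06 for other nucleotide excision genes. TDG, a glycosylase that removes thymine from mispairs, had 342 counts in the JFK-labelled library and 477 in vector (−0.46, interval −0.66 to −0.25), and 547 under ING5 siRNA and 814 under control siRNA (−0.56, interval −0.72 to −0.40). CDC25A, the phosphatase that checkpoint kinases target, had 799 counts under ING5 siRNA and 450 under control siRNA (0.84, interval 0.68 to 1.01), and UVSSA, a transcription-coupled repair factor, 90 and 44 (1.04, interval 0.51 to 1.60). POLL, a gap-filling polymerase, had 143 under ING5 siRNA and 90 under control siRNA (0.68, interval 0.29 to 1.08).

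Genes that respond to damage through p53 and genes of the cell cycle were read beside these. Of 23 p53 target genes, 11 lay below 0 in the JFK-labelled library and 15 under ING5 siRNA, beside 49.5% and 51.4% of all measured genes, with medians of 0.05 and −0.06. GADD45A, a growth arrest gene, had 267 counts under ING5 siRNA and 157 under control siRNA (0.78, interval 0.49 to 1.08), whereas MDM2, the ligase that limits p53, had 838 and 1274 (−0.59, interval −0.72 to −0.46). Targets of p53 thus lay on both sides of 0 in that pair. S phase genes had medians of −0.05 in the JFK comparison and −0.07 in the ING5 comparison, and mitotic G2/M genes −0.03 and −0.16, with 23 of 25 G2/M genes below 0 under ING5 siRNA, beside 51.4% of all measured genes. Their part in the recombination and Fanconi values was not tested.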

How the data were processed

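Trizol RNA was read on a HiSeq 2500, per the labels' protocols. FastQC, fastp, STAR and DESeq2 are named with GRCh37 and hg19 in the submitters' processing notes; no versions or counting program are given in the sources used here. The authors deposited expected counts and FPKM for vector and JFK, and counts and RPKM for the siRNA libraries, per the file headers. Entrez identifiers were matched to RefSeq symbols (16899 and 16767 of 17009 and 16856). Left out were 2 identifiers listed more than once in the siRNA pair and 1 gene with a blank count in the JFK pair. The analysis used Python 3.11.15, numpy 2.4.6, pandas 2.3.3, scipy 1.17.1 and matplotlib 3.10.9. Counts were scaled by TMM (trims 0.3 and 0.05), 0.5 was added, and genes with a mean of at least 20 normalised counts were called measured; expected counts were rounded for the intervals. With 1 library per group no count model could be fitted. Reads are not independent molecules, and the intervals cover counting error only. A count of 0 allows up to 0.326 to 0.418 CPM (3 counts). The method was tested on simulated counts with counting error only and with changes larger than any member showed. That test does not cover variation between libraries or the recovery of folds this small. Ratios of partner genes carry the exact conditional interval of the odds ratio.

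The members and lists were chosen with earlier results of these data known. All 40 members are described; those with counts and intervals are the 5 highest and 5 lowest in each comparison, those with an interval on the same side of 0 in both, and, beyond that rule, members chosen after their values were seen for a place in a complex. Of other lists, examples come from the 2 highest and 2 lowest genes. Some genes of these lists are not reported here. Partner pairs and head-to-head neighbours were likewise chosen after the values were seen. Coordinates are given only for the RefSeq promoters (GRCh38.p14), since the tables were made on another build. GC content is that of the longest coding transcript in GENCODE 29, with a value for 40 of 40 members. Alternatives were median-of-ratios and total-count scaling, 5 added, no filter, a mean of at least 100, and the deposited FPKM and RPKM; centring by GC content or by gene length, in 10 bins, was added after seeing the data.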

Additional observations from a re-analysis of the deposited data

How the results depend on the processing

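No paired analysis was possible because each group holds 1 library. Of the counts and medians over the members, 3 counts moved by more than 1.5 times. With total-count scaling 11 members had an interval wholly below 0 in the JFK comparison, in place of 7. Total counts move the median of all genes there to −0.03. The share of all genes wholly below 0 in that comparison was not computed with total counts. With centring on GC content 3 members had an interval wholly below 0 in both comparisons, in place of 6, and 1 wholly above 0 in both, in place of 0. With centring on gene length the number wholly below 0 in both was 5, without TP53BP1, beside 3.78% of genes. The median fold of the members ran from −0.07 to −0.01 in the JFK comparison and from −0.04 to −0.01 in the ING5 comparison over all alternatives. The number 1.5-fold higher or lower was 0 under every alternative run. By the deposited FPKM 29 members lay below 0 in the JFK comparison, in place of 22, where the median of all genes was −0.05. The share of all genes below 0 by FPKM was not computed. Of 637 values of single members under the alternatives, 636 stayed within the main interval, and MSH6 with GC centring in the JFK comparison did not (0.18); 0 members with an interval off 0 changed sign. No filter left out a member except a mean of at least 100, which left 37 in the JFK pair. Over all genes, the number 1.5-fold higher and lower in the JFK comparison was 181 and 251, against 22 and 60 at a mean of at least 100, 143 and 308 with total counts and 139 and 377 by FPKM. In the ING5 comparison it was 466 and 512, against 168 and 293 at a mean of at least 100. Without a filter it was 1571 and 1846 in the JFK comparison and 2263 and 2113 in the ING5 comparison. Depth limits the low members most: XRCC4, with 59 counts in the JFK-labelled library and 55 in vector, has an interval from −0.43 to 0.68.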
